A study of Mus musculus with 12 samples.

Results

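The genes described here are 35 genes of glycolysis and of the response to low oxygen, chosen by symbol: the glucose and lactate transporters, the enzymes from hexokinase to lactate dehydrogenase with their isoforms, the kinases that regulate the pathway, and a set of hypoxia response genes. Of these 35, 33 were named by at least 1 probe set annotated to a single gene, out of 18193 genes named that way on the whole array. Each gene was represented by its brightest such probe set, taken by the mean of all 6 arrays. Gpi1 and Eno1 had no such probe set and were not analysed here. Gapdh was measured by control probe sets alone, which were kept out of the fit across probe sets. Aldoc, Egln3 and Ankrd37 did not pass the filter on low values, and 29 genes were tested.

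The arrays compare G9a knockdown with wild type mouse erythroleukemia (MEL) cells, leukemic red cell precursors that differentiate in culture under dimethyl sulfoxide (DMSO). There were 3 G9a knockdown and 3 wild type arrays, numbered 1 to 3 in each group. The protocol in the labels, which is the same for both groups, gives 2% DMSO for 4 days and 5 µg/ml doxycycline to induce the knockdown. It does not say whether wild type cells received doxycycline or whether the knockdown line was a single clone. Nor does it say whether replicates were separate cultures. The p-values therefore cover only array-to-array spread, possibly technical.

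G9a, encoded by Ehmt2, is an enzyme that methylates histone H3 on lysine 9, a modification found at silenced genes. Glycolysis splits glucose into pyruvate, and mature red cells, which lack mitochondria, depend on it for energy. Many of its genes respond to low oxygen through the transcription factor HIF1A. When oxygen is present, prolyl hydroxylases of the Egln family mark the HIF1A protein for destruction through the Vhl ubiquitin ligase. When oxygen is scarce the protein persists, pairs with Arnt and binds the core motif ACGTG or GCGTG near its targets, so its activity is set largely at the protein level.

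The targeted gene was low in the arrays labelled knockdown. The Ehmt2 probe set 1426888_at had GCRMA log2 values of 4.29, 4.28 and 4.16 in knockdown arrays, against 7.43, 7.07 and 6.82 in wild type arrays. The difference, knockdown minus wild type with the replicate number as a block, was -2.86 (95% interval -3.19 to -2.54), with an adjusted p of 0.0278 in limma over 17028 probe sets. A further Ehmt2 probe set, 1460692_at, differed by -2.87 with an adjusted limma p of 0.0316, or 0.0719 without the block. Both calls were lost without replicate 1 (adjusted limma p 0.277 for each) or replicate 2 (0.142 for each), and in MAS5, while both probe sets had groups that did not overlap. Markers of red cells were well represented: 11 of 12 erythroid markers with a probe set passed the filter, while 0 of 8 lymphoid and 0 of 8 fibroblast or endothelial markers did. Of the myeloid markers 1 of 9 (Csf1r) passed, and of the megakaryocyte markers 1 of 6 (Pf4). In bulk RNA, fewer cells of a type and less RNA per cell cannot be told apart.

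Across both pathways, no tested gene passed the adjusted threshold. In the limma fit with the replicate block, 0 of 29 genes reached an adjusted p under 0.05, against 0% of all probe sets tested in the higher direction and 0.0117% in the lower one, and the smallest adjusted p among the 29 was 0.223. At an unadjusted p under 0.05, 6 of 29 genes were higher in knockdown cells, where 6.44% of all probe sets were. These were Slc2a3, Slc16a3, Pfkp, Eno2, Pfkfb4 and Ndrg1. In the lower direction there were 0 of 29, where 7.24% of all probe sets were. Without the block, 2 of 29 genes, Slc2a3 and Ndrg1, were higher at this level (2.59% of all probe sets) and 0 were lower (3.28%).

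The differences of the 29 genes lay mostly above 0. The mean difference was positive for 21 of 29 genes, where 48.3% of all probe sets were positive, and the median was 0.16 for the 29 genes and -0.0083 for all probe sets, in log2 units. In the MAS5 summary of the same arrays, 26 of 29 genes kept the sign they had in GCRMA, as did 79.4% of all probe sets, and the median was 0.15. Both Slc2a3 and Ndrg1 had an unadjusted limma p under 0.05 and a positive difference in MAS5 (2 of 29, against 5.5% of all probe sets). In the lower direction MAS5 gave 0 of 29 (5.06%), and 0 genes passed its adjusted threshold, where 0% of all probe sets did.

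The values were highest in 1 array. Knockdown replicate 3 was the highest of the 6 arrays for 18 of 29 genes, where it was the highest for 16.6% of all probe sets tested. Wild type replicate 1, the highest array for 30.3% of all probe sets, was the highest for 6 of the 29 genes. In MAS5, knockdown replicate 3 was the highest for 19 of 29 genes (16.9% of all probe sets). Set against the wild type array of the same number, knockdown replicates 1, 2 and 3 had medians over the 29 genes of -0.043, 0.084 and 0.41, where the medians over all probe sets were -0.047, -0.0023 and 0.016. Positive differences numbered 11 of 29 in pair 1 (42.4% of all probe sets), 19 in pair 2 (49.6%) and 23 in pair 3 (52.2%). What sets knockdown replicate 3 apart was not tested.

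**Figure D1:**
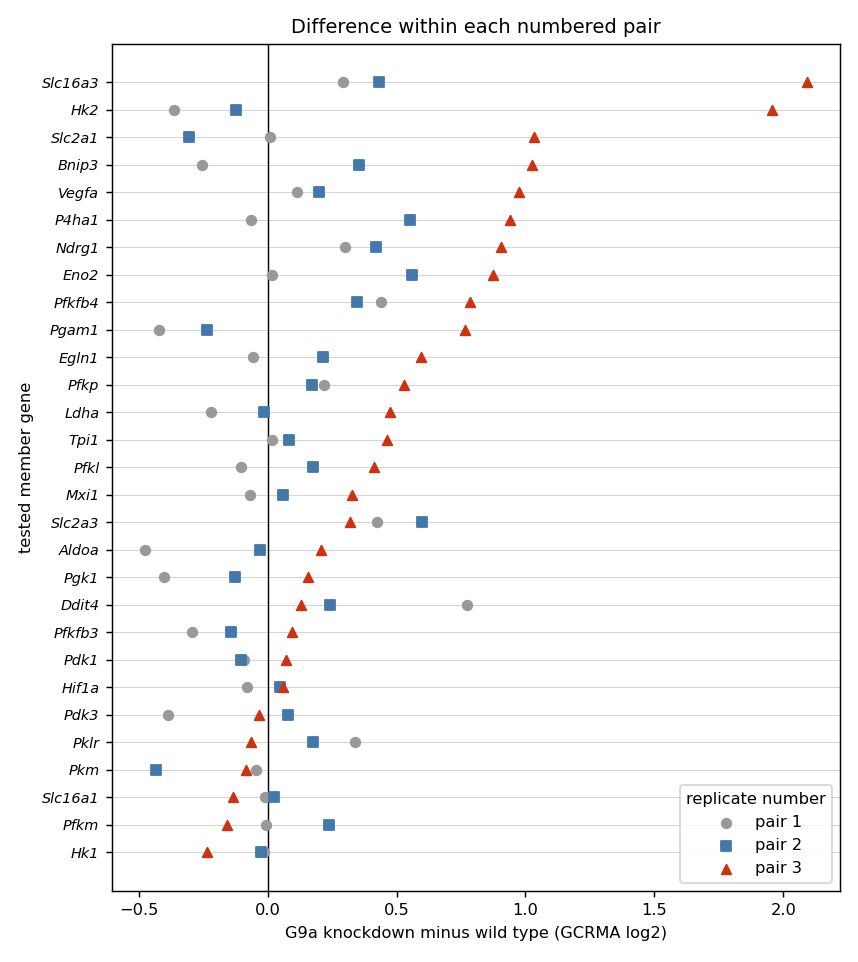
Difference between the G9a knockdown and the wild type array of the same replicate number, in GCRMA log2 units, for each gene (rows), with 1 symbol per pair. Pair 3 reached 2.09 for Slc16a3 and 1.95 for Hk2, and its symbols lie to the right of those of pairs 1 and 2 for most genes.

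A difference above 0.5 was seen for 1 of 29 genes in pair 1 (Ddit4; 3.79% of all probe sets), for 3 in pair 2 (Slc2a3, Eno2 and P4ha1; 5.06%) and for 12 in pair 3 (7.94%). The 12 were Slc2a1, Slc16a3, Hk2, Pfkp, Pgam1, Eno2, Pfkfb4, Egln1, Bnip3, Ndrg1, Vegfa and P4ha1. In the other direction pair 3 had 0 of 29 genes below -0.5, where 5.4% of all probe sets were. By MAS5, the same count was 3 in pair 1 (9.09%), 1 in pair 2 (7.3%) and 9 in pair 3 (7.9%). Without replicate 3, 16 of 29 genes had a positive mean difference (44.5% of all probe sets) and the median was 0.036, against -0.023 for all probe sets.

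The genes most raised in knockdown replicate 3 carry out different steps. Slc16a3, the lactate exporter MCT4, had GCRMA log2 values of 8.66, 8.23 and 9.80 in knockdown arrays, against 8.37, 7.80 and 7.70 in wild type arrays. Knockdown replicate 3 stood highest and each knockdown array was above the wild type array of its number, although the groups overlapped. The difference was 0.94 (0.02 to 1.86, adjusted limma p 0.36), and 0.36 without replicate 3. In pair 3 alone the difference of 2.09, or 4.27-fold, ranked 6 from the top of 17028 probe sets.

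Hk2, the inducible hexokinase of the first step of the pathway, had values of 6.87, 6.10 and 8.92 in knockdown arrays, against 7.23, 6.22 and 6.96 in wild type arrays. Only knockdown replicate 3 was above the wild type range, and knockdown replicate 2 was below it. The mean difference of 0.49 (-0.66 to 1.65, adjusted limma p 0.678) changed sign to -0.24 without replicate 3. The pair 3 difference was 1.95, or 3.88-fold, and ranked 12.

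Slc2a1, the widely expressed glucose transporter GLUT1, had values of 9.25, 8.73 and 10.67 in knockdown arrays, against 9.24, 9.03 and 9.63 in wild type arrays. Here too knockdown replicate 3 was the highest and knockdown replicate 2 the lowest of the 6. The mean difference of 0.25 (-0.42 to 0.91, adjusted limma p 0.721) changed sign to -0.15 without replicate 3. Its other 2 tested probe sets differed by 0.28 and 0.43, and knockdown replicate 3 was the highest array for both.

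Bnip3, a mitochondrial protein that promotes the removal of mitochondria, had values of 8.80, 9.15 and 10.25 in knockdown arrays, against 9.06, 8.80 and 9.23 in wild type arrays. Knockdown replicates 1 and 2 lay within the wild type range, and replicate 3 lay above it. The difference was 0.38 (-0.24 to 0.99, adjusted limma p 0.54), and 0.05 without replicate 3.

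Ankrd37, a hypoxia-induced ankyrin repeat gene, was above the filter in a single array. Its values were 3.47, 3.32 and 6.46 in knockdown arrays, against 3.46, 3.50 and 3.63 in wild type arrays, and it was not tested. By MAS5 its intensities were 23.3, 57.3 and 559.9 in knockdown arrays, against 87.8, 22.0 and 64.0 in wild type arrays. Both summaries placed knockdown replicate 3 far above the other 5 arrays.

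**Figure D2:**
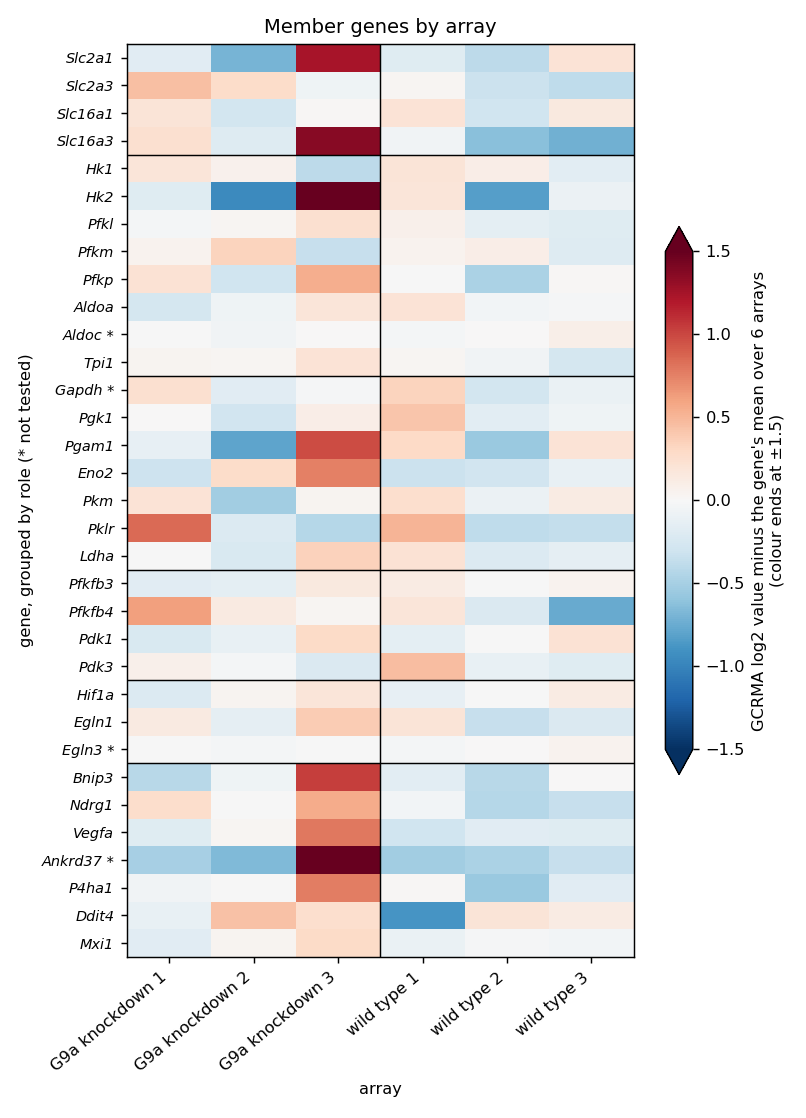
GCRMA log2 value of each gene in each array as a deviation from that gene's mean over the 6 arrays, with G9a knockdown arrays left of wild type arrays and genes in rows grouped by role. The column of knockdown replicate 3 is the highest of the 6 for 18 of the 29 tested genes.

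Sequences upstream of the 5 genes with a pair 3 difference above 1 are shown because the core motif of the hypoxia factor can be read in them, and that of Slc16a1, whose pair 3 difference was -0.13, is shown for contrast. Each runs 5′ to 3′ over the 250 bases before the RefSeq gene start on GRCm38.p6, read on the strand of the gene. Capitals mark ACGTG or GCGTG on either strand, which appear as CACGT and CACGC when on the other strand, and CACGTG counts as a match on both.
Ankrd37: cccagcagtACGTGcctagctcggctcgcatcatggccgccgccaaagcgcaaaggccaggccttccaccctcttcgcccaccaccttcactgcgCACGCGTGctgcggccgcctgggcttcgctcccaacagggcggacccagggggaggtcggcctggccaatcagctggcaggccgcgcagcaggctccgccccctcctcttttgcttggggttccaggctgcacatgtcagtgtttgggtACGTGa
Slc16a3: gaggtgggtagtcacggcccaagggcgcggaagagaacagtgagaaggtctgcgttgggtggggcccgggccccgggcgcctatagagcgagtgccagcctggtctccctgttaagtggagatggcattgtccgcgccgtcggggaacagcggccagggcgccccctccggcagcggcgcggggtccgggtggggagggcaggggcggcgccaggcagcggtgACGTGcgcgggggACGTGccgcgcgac
Hk2: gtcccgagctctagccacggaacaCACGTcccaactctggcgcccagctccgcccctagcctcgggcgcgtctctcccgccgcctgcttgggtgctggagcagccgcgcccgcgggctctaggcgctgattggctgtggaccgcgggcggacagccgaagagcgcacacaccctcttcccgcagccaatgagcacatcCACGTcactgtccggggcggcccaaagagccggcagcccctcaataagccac
Slc2a1: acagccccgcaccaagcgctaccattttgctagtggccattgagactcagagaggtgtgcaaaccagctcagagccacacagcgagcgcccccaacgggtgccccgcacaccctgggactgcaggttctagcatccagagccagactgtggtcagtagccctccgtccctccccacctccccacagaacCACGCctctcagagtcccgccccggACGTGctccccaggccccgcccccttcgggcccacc
Bnip3: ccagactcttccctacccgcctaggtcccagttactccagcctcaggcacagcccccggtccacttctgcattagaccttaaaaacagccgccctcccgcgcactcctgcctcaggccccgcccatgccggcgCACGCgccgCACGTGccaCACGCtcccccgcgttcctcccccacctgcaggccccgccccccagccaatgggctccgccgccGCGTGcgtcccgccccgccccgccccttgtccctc
Slc16a1: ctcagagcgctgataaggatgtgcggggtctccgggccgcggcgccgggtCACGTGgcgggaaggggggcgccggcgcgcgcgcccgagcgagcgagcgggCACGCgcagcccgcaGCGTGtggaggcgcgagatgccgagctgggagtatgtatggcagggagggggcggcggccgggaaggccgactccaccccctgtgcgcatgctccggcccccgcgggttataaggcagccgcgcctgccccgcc
These lie at chr8:45999851-46000100 on the minus strand (Ankrd37), chr11:120948817-120949066 on the plus strand (Slc16a3), chr6:82774455-82774704 on the minus strand (Hk2), chr4:119108495-119108744 on the plus strand (Slc2a1), chr7:138909507-138909756 on the minus strand (Bnip3) and chr3:104638414-104638663 on the plus strand (Slc16a1).

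In Ankrd37 there were 4 matches, in Slc16a3 2, in Hk2 2, in Slc2a1 2 and in Bnip3 5, while Slc16a1 had 4. RefSeq promoters were matched for 33 of the 35 genes, all but Ndrg1 and Slc2a3. Gpi1 and Eno1, which had no usable probe set, are thus included here. Of their 50 promoters, 38 (76%) held at least 1 match, as did 58.1% of the 9579 promoters of genes tested on the arrays and 38.6% of all 32851 promoters. A match describes the letters alone. The genes were chosen by pathway, hypoxia response included, and some have several promoters, so these shares say nothing about the arrays.

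Among the transporters, the neuronal-type glucose transporter Slc2a3 (GLUT3) differed in another way from Slc2a1. Slc2a3 had values of 10.33, 10.15 and 9.82 in knockdown arrays, against 9.91, 9.55 and 9.50 in wild type arrays. Each knockdown array was above the wild type array of its number, the largest value was in knockdown replicate 1, and the groups overlapped. The difference was 0.45 (0.18 to 0.71, adjusted limma p 0.223), or 1.36-fold, and 0.51 without replicate 3. Its other 2 tested probe sets differed by 0.48 and 0.67. The probe set used (1437052_s_at) is of a type that can pick up related transcripts.

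Slc16a1, the lactate transporter MCT1, had values of 12.87, 12.41 and 12.70 in knockdown arrays, against 12.88, 12.39 and 12.83 in wild type arrays. The groups overlapped throughout, with a difference of -0.04 (-0.28 to 0.20, adjusted limma p 0.887).

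Isoforms of a step can be set against each other within an array, which was done for 8 pairs of isoforms after the values had been seen. Probe sets differ in brightness, so the change of a ratio between groups is meaningful and its level is not. The log2 ratio of Slc16a3 to Slc16a1 was higher in knockdown arrays by 0.98, by 0.30, 0.41 and 2.23 in pairs 1, 2 and 3, and its groups did not overlap. The exact two-sided permutation p was 0.10, the smallest that 3 arrays against 3 allow, and 0.80 after adjustment over the 8 ratios. The ratio of Hk2 to Hk1 differed by 0.58 on average but by -0.35, -0.10 and 2.19 in the pairs (exact permutation p 0.90). For Pfkfb4 to Pfkfb3 the differences were 0.73, 0.49 and 0.69 (exact permutation p 0.20, adjusted 0.80). The remaining ratios had overlapping groups. Their exact permutation p was 0.40 for Pklr to Pkm, 0.60 for Pfkp to Pfkl and 0.70 for Pfkp to Pfkm. It was 0.80 for Slc2a3 to Slc2a1 and 0.90 for Pdk1 to Pdk3. The permutation test does not use the replicate number.

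**Figure D3:**
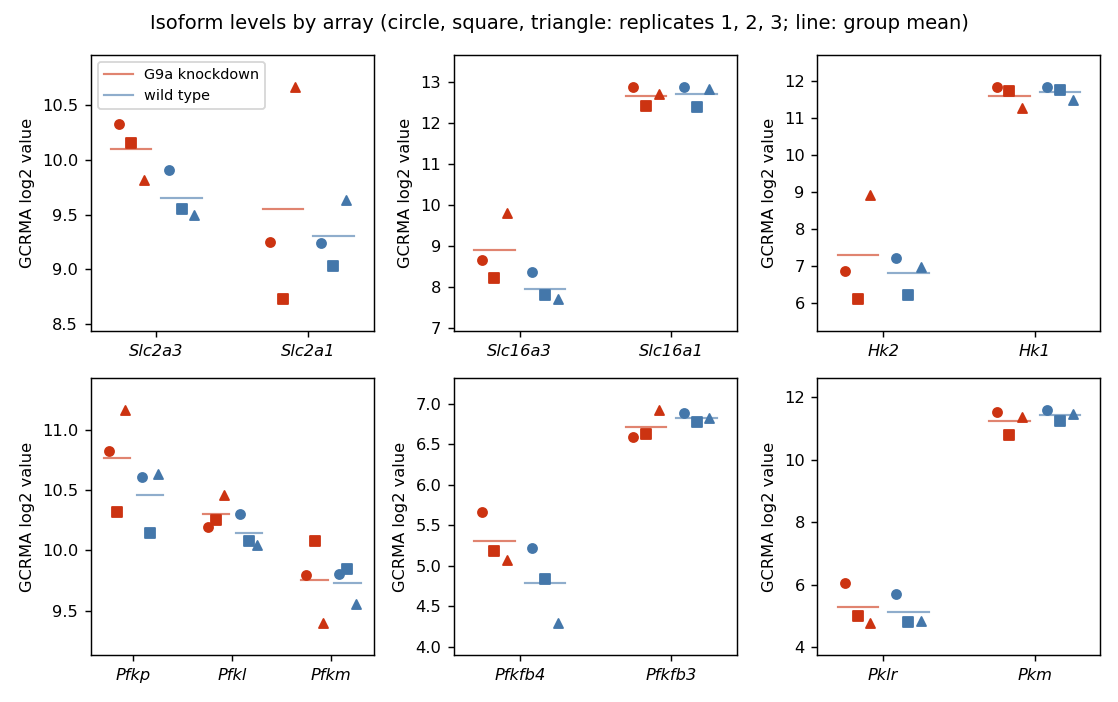
GCRMA log2 value of isoforms of the same step, with G9a knockdown arrays left of wild type arrays for each gene, 1 symbol per replicate number and a line at each group's mean. The triangles of knockdown replicate 3 lie above the other arrays for Slc16a3, Hk2, Slc2a1, Pfkp and Pfkl, and narrowly for Pfkfb3. Levels of different probe sets are not comparable.

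The upper steps of glycolysis, from hexokinase to the triose phosphates, held 7 tested genes, 5 of them with a positive mean difference. Hk1, the constitutive hexokinase, was lower in knockdown arrays in all 3 pairs, by -0.02, -0.03 and -0.24, with a mean of -0.09 (-0.35 to 0.16). By MAS5 the Hk1 pairs were 0.07, 0.04 and -0.18. The other tested Hk1 probe set differed by -0.04 on average and by 0.01 in pair 3. Phosphofructokinase, the main control point of the pathway, is built from the products of Pfkl, Pfkm and Pfkp. Pfkp had values of 10.83, 10.32 and 11.16 in knockdown arrays, against 10.61, 10.14 and 10.63 in wild type arrays, a difference of 0.31 (0.02 to 0.60, adjusted limma p 0.351). Each knockdown array was above its numbered partner, and knockdown replicate 3 was the highest. Without replicate 3 the Pfkp difference was 0.20. The other tested Pfkp probe set differed by 0.42 on average but by -0.18 in pair 1. Pfkl differed by 0.16 (-0.17 to 0.49), or 0.036 without replicate 3, and Pfkm by 0.03 (-0.27 to 0.32).

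Tpi1, which interconverts the triose phosphates, was 1 of 2 genes whose groups did not overlap with the knockdown higher, the other being Ndrg1 (2 of 29, against 5.04% of all probe sets). Tpi1 had values of 10.77, 10.76 and 10.93 in knockdown arrays, against 10.75, 10.68 and 10.47 in wild type arrays. All 3 knockdown arrays were above the wild type arrays, by a narrow margin except in replicate 3, and the difference was 0.19 (-0.13 to 0.50, adjusted limma p 0.546), or 0.051 without replicate 3. There were 0 of 29 genes with the knockdown entirely lower, against 7.33% of all probe sets. Aldoa, the main aldolase, differed by -0.10 (-0.49 to 0.29), and by -0.48, -0.03 and 0.21 in pairs 1, 2 and 3. Aldoc, the brain-type aldolase, stayed under the filter in every array, at 2.62 to 2.68 in knockdown arrays and 2.66 to 2.76 in wild type arrays. The Tpi1 and Aldoa probe sets (1452927_x_at and 1434799_x_at) are of a type that can pick up related transcripts.

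The lower steps, from glyceraldehyde phosphate to lactate, held 6 tested genes, 4 with a positive mean difference. The 3′ control probe set of Gapdh had values of 14.27, 13.87 and 14.02 in knockdown arrays, against 14.36, 13.75 and 13.93 in wild type arrays, and the groups overlapped. Pgk1, the first ATP-forming enzyme, differed by -0.13 (-0.46 to 0.21). Pgam1, a phosphoglycerate mutase, had values of 11.07, 10.40 and 12.16 in knockdown arrays, against 11.49, 10.63 and 11.40 in wild type arrays. It was above its partner in pair 3 alone, and its difference of 0.04 (-0.57 to 0.65) was -0.33 without replicate 3.

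Eno2, the enolase best known from neurons, had values of 5.46, 6.04 and 6.53 in knockdown arrays, against 5.44, 5.47 and 5.65 in wild type arrays. Knockdown replicates 2 and 3 were above every wild type array, and the difference was 0.49 (0.03 to 0.93, adjusted limma p 0.344), or 0.29 without replicate 3. By MAS5 the Eno2 difference was 0.17, with -0.11, 0.35 and 0.28 in pairs 1, 2 and 3. There, knockdown replicate 2 was below wild type replicate 3. Pkm, the pyruvate kinase of most tissues, was lower in all 3 pairs, by -0.04, -0.43 and -0.08, with a mean of -0.19 (-0.49 to 0.11). Pklr, whose red cell form supplies pyruvate kinase in mature erythrocytes, differed by 0.15 (-0.14 to 0.44), while its other tested probe set differed by -0.34. Ldha, which converts pyruvate to lactate, differed by 0.08 (-0.31 to 0.47), with -0.22, -0.01 and 0.48 in pairs 1, 2 and 3.

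Counting genes by pair in GCRMA, 9 of 29 were higher in knockdown arrays in all 3 pairs, where 17.3% of all probe sets were. These were Slc2a3, Slc16a3, Pfkp, Tpi1, Eno2, Pfkfb4, Ndrg1, Vegfa and Ddit4. Hk1 and Pkm were lower in all 3 pairs (2 of 29, against 20.6% of all probe sets). The remaining 18 genes had pairs of both signs.

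Of the 4 kinases that regulate the pathway, Pfkfb4 stood apart from the others. It makes and breaks down a fructose bisphosphate that activates phosphofructokinase, and had values of 5.66, 5.18 and 5.07 in knockdown arrays, against 5.22, 4.83 and 4.29 in wild type arrays. Each knockdown array was above its numbered partner by 0.35 to 0.78, while the groups overlapped. The difference was 0.52 (0.21 to 0.83, adjusted limma p 0.223), or 1.44-fold, and 0.39 without replicate 3. By MAS5 the pairs were 0.56, -0.05 and -0.07. Its relative Pfkfb3 differed by -0.11 (-0.40 to 0.18). Pdk1 and Pdk3, which switch off pyruvate dehydrogenase, differed by -0.04 (-0.29 to 0.21) and -0.11 (-0.43 to 0.20).

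The transcript of the hypoxia factor itself was nearly level in its brightest probe set. Hif1a had values of 10.34, 10.58 and 10.72 in knockdown arrays, against 10.42, 10.53 and 10.66 in wild type arrays. The groups overlapped, and the difference was 0.01 (-0.23 to 0.25, adjusted limma p 0.978). The other 2 tested Hif1a probe sets differed by 0.24 and 0.14, and by 0.65 and 0.85 in pair 3. Knockdown replicate 3 was the highest array for both, and in MAS5 their mean differences were 0.012 and -0.021. Egln1, the main prolyl hydroxylase acting on HIF1A and itself a target of it, had values of 10.13, 9.86 and 10.38 in knockdown arrays, against 10.19, 9.65 and 9.78 in wild type arrays. Knockdown replicate 3 was the highest, and the difference was 0.25 (-0.12 to 0.62), or 0.077 without replicate 3. The other tested Egln1 probe set differed by 0.19, or -0.057 without replicate 3. In MAS5 the probe set used differed by 0.25 and the other by -0.43. Egln3, a hydroxylase induced by hypoxia in many cells, was under the filter in every array, at 2.27 to 2.29 in knockdown arrays and 2.27 to 2.35 in wild type arrays.

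All 6 tested genes among the other hypoxia response genes had a positive mean difference, with a median of 0.41 and with 3, 6 and 6 positive in pairs 1, 2 and 3. Ndrg1, a stress-induced gene, had values of 8.38, 8.11 and 8.68 in knockdown arrays, against 8.08, 7.69 and 7.78 in wild type arrays. Every knockdown array was above every wild type array, and the difference was 0.54 (0.18 to 0.91, adjusted limma p 0.265), or 1.46-fold. Without replicate 3 it was 0.36. Its other 4 tested probe sets differed by 0.44 to 0.92. For 3 of these 4 the groups overlapped, and 2 of them were below their partner in pair 1, by -0.084 and -0.39. The probe set used (1456174_x_at) is of a type that can pick up related transcripts.

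Vegfa, which drives vessel growth, had values of 7.01, 7.22 and 7.98 in knockdown arrays, against 6.90, 7.02 and 7.00 in wild type arrays. All knockdown arrays but replicate 1 were above the wild type range, with replicate 3 the highest, and the difference was 0.43 (-0.05 to 0.91, adjusted limma p 0.403), or 0.16 without replicate 3. P4ha1, a collagen prolyl hydroxylase, had values of 7.85, 7.89 and 8.67 in knockdown arrays, against 7.91, 7.34 and 7.73 in wild type arrays. Its difference was 0.48 (-0.03 to 0.98), and 0.24 without replicate 3. The other tested P4ha1 probe set differed by 0.39, and its sign turned to -0.22 without replicate 3.

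Ddit4, an inhibitor of mTORC1 signalling induced by hypoxia and other stresses, followed a different order. It had values of 12.93, 13.48 and 13.30 in knockdown arrays, against 12.16, 13.24 and 13.17 in wild type arrays. The low array was wild type replicate 1, and the pair differences were 0.77, 0.24 and 0.13, with a mean of 0.38 (-0.0012 to 0.77, adjusted limma p 0.365). Without wild type replicate 1 and without the block, the difference was 0.034. Mxi1, a MYC antagonist, differed by 0.11 (-0.19 to 0.40).

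Without replicate 3, 5 of the 29 genes had an unadjusted limma p under 0.05 in the higher direction (5.31% of all probe sets) and 0 in the lower one (7.73%). These were Slc2a3, Slc16a3, Pfkfb4, Ndrg1 and Ddit4, and 0 of 29 passed the adjusted threshold, where 0.00587% of all probe sets did. Slc2a3, Slc16a3, Pfkfb4 and Ndrg1 were at this level with and without replicate 3. All these fits share arrays, so they are not independent of each other. Without replicate 3, the p-values rest largely on the spread that limma borrows across probe sets. Of these 4, Slc2a3 and Ndrg1 were also at it without the block and in MAS5, whereas Slc16a3 (unadjusted limma p 0.060 without the block and 0.102 in MAS5) and Pfkfb4 (0.098 and 0.428) were not.

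Other genes of the same pathways were taken from lists. Of 34 other genes of glycolysis and pyruvate use, 19 were tested, 8 of them with a positive mean difference, and their median was -0.02. Knockdown replicate 3 was the highest array for 1 of the 19 (16.6% of all probe sets). At an unadjusted limma p under 0.05, 2 were higher (6.44%) and 1 was lower (7.24%), counts near those shares. Pdp2 and Pdp1, phosphatases that switch pyruvate dehydrogenase on, differed by 0.38 (0.12 to 0.64) and 0.49 (0.13 to 0.85). Mpc1, a subunit of the mitochondrial pyruvate carrier, was lower in all 3 pairs without overlap of the groups, by -0.31 (-0.55 to -0.06), and Adpgk, an ADP-dependent glucokinase, by -0.30 (-0.63 to 0.02). None of the 19 passed the adjusted threshold, with a smallest adjusted limma p of 0.271.

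The pentose phosphate pathway branches from glycolysis and yields NADPH and ribose. Of its 8 listed genes 7 were tested, 3 with a positive mean difference, with a median of -0.14, and knockdown replicate 3 was the highest array for 0 of the 7 (16.6% of all probe sets). At an unadjusted limma p under 0.05, 1 was higher (6.44%) and 2 were lower (7.24%). Rpia, which makes ribose phosphate, differed by 0.39 (0.13 to 0.65) without overlap of the groups. Pgd, an NADPH-forming dehydrogenase, differed by -0.30 (-0.57 to -0.04), and Taldo1, a transaldolase, by -0.32 (-0.65 to -0.0041) without overlap. Tkt, a transketolase, differed by -0.16 (-0.43 to 0.11).

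Of 46 other genes of the hypoxia pathway, 33 were tested, 20 with a positive mean difference, and the medians in pairs 1, 2 and 3 were -0.09, 0.07 and 0.18. A pair 3 difference above 0.5 was seen in 9 of the 33 (7.94% of all probe sets), and knockdown replicate 3 was the highest array for 15 (16.6%). At an unadjusted limma p under 0.05, 4 were higher (6.44% of all probe sets) and 2 lower (7.24%), and 0 passed the adjusted threshold.

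Cited2, which competes with HIF1A for its coactivator, had the smallest p of this list. Its values were 9.96, 9.63 and 10.36 in knockdown arrays, against 10.88, 10.99 and 11.76 in wild type arrays. All knockdown arrays were below all wild type arrays, and the difference was -1.23 (-1.56 to -0.90, adjusted limma p 0.149). Vhl, the substrate receptor that marks HIF1A for destruction, had values of 7.60, 7.49 and 7.52 in knockdown arrays, against 8.17, 7.86 and 7.83 in wild type arrays. Here too the groups did not overlap, with a difference of -0.42 (-0.68 to -0.16, adjusted limma p 0.237).

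P4ha2, a collagen prolyl hydroxylase, had values of 7.12, 6.74 and 7.38 in knockdown arrays, against 6.63, 6.23 and 6.41 in wild type arrays, a difference of 0.66 (0.32 to 0.99, adjusted limma p 0.205). Ak4, a mitochondrial adenylate kinase, had values of 5.29, 4.74 and 6.58 in knockdown arrays, against 4.69, 3.75 and 4.04 in wild type arrays, a difference of 1.38 (0.43 to 2.32, adjusted limma p 0.269). Both genes had groups that did not overlap, and knockdown replicate 3 was the highest array for each. The pair 3 difference of Ak4, 2.54, ranked 3 of 17028. Its wild type values lay near the filter of log2 4, where GCRMA differences are less certain. By MAS5 the Ak4 difference was 0.92 in pair 3 and 0.62 on average. Picked after their values were seen, Bhlhe40, Stc2, Hmox1 and Ero1a had pair 3 differences of 1.98, 1.68, 1.62 and 1.46, against at most 0.37 in pairs 1 and 2.

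**Figure D4:**
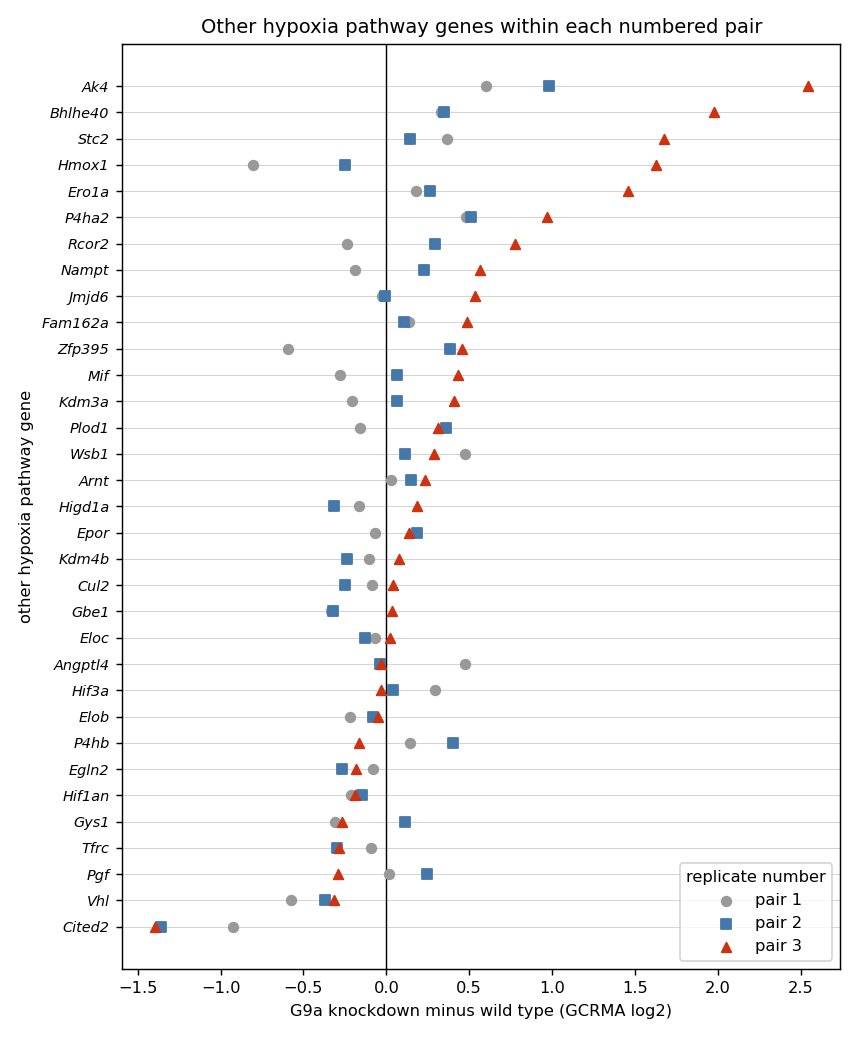
Difference between the G9a knockdown and the wild type array of the same replicate number, in GCRMA log2 units, for 33 other genes of the hypoxia pathway (rows, ordered by pair 3). Ak4, Bhlhe40, Stc2, Hmox1 and Ero1a lie furthest right in pair 3, and Cited2 lies left of -0.9 in all 3 pairs.

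Marker sums and control ratios were set beside these results. Pf4, the single megakaryocyte marker of 6 above the filter, had values of 9.06, 8.58 and 7.13 in knockdown arrays, against 8.83, 8.42 and 7.88 in wild type arrays. It was lowest in knockdown replicate 3, as was the summed level of all 6 megakaryocyte markers, which Pf4 dominates (7.38 to 9.14 in knockdown arrays and 8.06 to 8.94 in wild type arrays), and its part in the results above was not tested. The summed erythroid level was 15.75, 15.74 and 15.59 in knockdown arrays, against 15.49, 15.60 and 15.36 in wild type arrays, and replicate 3 was the lowest of each group. The log2 ratio of the 3′ to the 5′ Gapdh control probe set, a sign of RNA integrity, was 0.033, 0.052 and 0.042 in knockdown arrays, against 0.015, 0.061 and 0.162 in wild type arrays. That of knockdown replicate 3 lay within the range of the other arrays, and the groups overlapped (exact two-sided permutation p 0.6, where 0.10 is the smallest possible). The same ratio for beta-actin was larger, at 1.00, 1.08 and 1.07 in knockdown arrays, against 0.97, 1.10 and 1.19 in wild type arrays. Its groups overlapped too (exact two-sided permutation p 0.7).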

How the data were processed

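RNA was hybridized to 6 Affymetrix mouse arrays, each summarised by the authors with MAS5 and with GCRMA, per the labels, so the 12 columns are 6 arrays and the summaries are not replicates. The deposited GCRMA columns hold log2 values (0.69 to 16.49). The deposited MAS5 columns hold linear intensity, with a 2% trimmed mean of 500 on each array. Software versions and settings: not given in the sources used here. The number of arrays limits the precision.

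The 64 control probe sets among 45101 were left out of the fit and served for the 3′ to 5′ control ratios, compared by an exact permutation test. The platform annotation names 1 gene for 34958, several for 932 and none for 9211, and no gene was named from a probe set with several. The 17028 probe sets (9025 genes) that exceeded log2 4 on 3 or more arrays were tested with limma 3.58.1 in R 4.3.3, with group and replicate number as terms, Benjamini-Hochberg adjustment over all 17028 and a threshold of 0.05. MAS5 was tested as log2(value + 1) on the same probe sets. Same-numbered knockdown and wild type arrays deviated together from their group means (correlations of 0.72, 0.57 and 0.37), so the number was kept as a block. Differences are knockdown minus wild type, with 95% intervals from limma.

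The members and all lists were chosen with earlier results of these data known, so nothing here is independent support for them. Every member is named, and from each further pathway list the 4 genes with the lowest p, plus Bhlhe40, Stc2, Hmox1 and Ero1a, chosen after their values were seen. Marker lists are given by counts and sums. Alternatives were no block, MAS5, other filters, centring, array weights, arrays or pairs left out, and the mean over a gene's probe sets.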

Additional observations from a re-analysis of the deposited data

How the results depend on the processing

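With the replicate block 2 probe sets passed the adjusted threshold, both of Ehmt2. The count was 1 with no replicate block, 0 in MAS5 with either pseudocount (1 or 16), 0 without the filter, 8 with the filter at log2 6, 4 with array weights, and 0 to 1 when an array or a numbered pair was left out. No member was called under any of these settings. The median difference of the members stayed above 0 in all of them, and lay between 0.036 and 0.27 when a numbered pair was left out, the lowest without replicate 3. The sign turned for Slc16a1 (0.0024 with either pseudocount), Pfkm (-0.042 and -0.041) and Pdk1 (0.059 with either) in MAS5, for Pgam1 (-0.038) with array weights, and for Pklr (-0.096) and Pdk1 (0.013) by the mean over a gene's tested probe sets. The cause was not tested. Leaving out an array or a numbered pair turned the sign for members with small or replicate 3 dependent differences. The ranges were -0.32 to 1.09 for Hk2, -0.31 to 0.66 for Slc2a1, -0.049 to 0.69 for Bnip3, -0.44 to 0.44 for Pgam1, -0.12 to 0.23 for Ldha, -0.25 to 0.089 for Aldoa, -0.27 to 0.049 for Pgk1 and -0.34 to 0.030 for Pkm. They were -0.24 to 0.45 for Pklr, -0.21 to 0.080 for Hk1, -0.14 to 0.20 for Pfkm, -0.20 to 0.086 for Slc16a1, -0.19 to 0.066 for Pdk1, -0.23 to 0.090 for Pdk3, -0.080 to 0.11 for Hif1a and -0.013 to 0.22 for Mxi1. For Ddit4, whose sign held, the range was 0.034 to 0.57, the lowest without wild type replicate 1. The Ehmt2 difference stayed between -2.98 and -2.68 when a pair was left out. Low signal limits Aldoc, Egln3 and Ankrd37, for which 3 arrays above the filter were lacking.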
